A study of Mus musculus with 5375 samples.

Results

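The genes described here are 10 genes of the integrated stress response (ISR), chosen by name: Atf4, Atf5, Ddit3, Nupr1, Trib3, Ppp1r15a, Asns, Chac1, Ddit4 and Sesn2. All 10 were found among the 35299 genes of the tumour cell tables and the 35308 genes of the endothelial tables. All 10 also passed the filter on low counts, which left 19249 genes in tumour cells and 17585 in endothelial cells, and which a gene can pass through 1 group alone. When the genes were chosen it was known that Ppp1r15a differed between intravascular and extravascular tumour cells. The members' values in that comparison are therefore a description, and no test of them is given. The genes and the related lists below were chosen with earlier results of these data known. Counts of members or list genes beside the share over all genes are thus not independent of that choice.

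The ISR is the programme by which a cell lowers protein synthesis under amino acid shortage, endoplasmic reticulum stress, haem shortage or viral RNA. Kinases that sense these conditions phosphorylate the translation factor eIF2 on its alpha subunit, which slows general translation while the mRNA of the transcription factor ATF4 is translated more. ATF4 then switches on genes for amino acid synthesis and transport, further transcription factors such as CHOP (Ddit3), and the phosphatase subunit GADD34 (Ppp1r15a), which removes the phosphate from eIF2 again. Because part of the control of ATF4 lies in translation, mRNA levels do not show the amount of ATF4 protein.

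Single cells from the lung metastatic niche were profiled by a modified SMART-Seq2 protocol, a full-length method without molecular identifiers. The tumour cells (TCs) were 4T1-GFP, a mouse mammary carcinoma line that is syngeneic with BALB/c, stained with a proliferation dye and injected into the tail vein of wild-type female BALB/c mice. TCs were collected from culture before injection (day 0), at day 1.5 as intravascular or extravascular cells, separated by an antibody against H-2Kd given into the circulation, and at day 3.5 as latent cells that retained the dye or proliferative cells that had diluted it. Lung endothelial cells (ECs) were collected from uninjected mice (day 0) and at days 1.5 and 3.5 after injection. The intravascular and extravascular cells came from the same 4 animals (m5 to m8) and the latent cells from 4 others (m9 to m12). The cultured cells and the proliferative cells could each be treated only as 1 pool, and ECs came from 4 animals at day 0 and 3 at each later day. All tumour groups derive from 1 cell line, and the tumour gates differ from each other in sequencing lane as well, so gate and lane cannot be told apart.

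The cells in the deposited filtered tables were 369 from culture, 325 intravascular, 306 extravascular, 329 latent, 237 proliferative, and 839, 941 and 699 ECs at the 3 days. The EC total of 2479 equals that of the study, while the TC total of 1566 differs slightly from the total that the study states. A library here is the sum over the kept cells of 1 animal or pool. It held 31.9 to 49.9 M reads (M for mega) for the intravascular, extravascular and latent libraries, 92.1 M for culture, 163.5 M for the proliferative pool and 75.6 to 129.5 M for ECs, and CPM are reads per M reads of a library. The summed CPM of 6 epithelial markers (keratins, Epcam and Cdh1) was 2711 to 6317 in TC libraries and 1.99 to 21.6 in EC libraries. That of 6 endothelial markers was 15.7 to 45.8 in TCs and 8416 to 14745 in ECs, so the tumour and endothelial labels matched their defining genes. These markers do not check the tumour gates, which by the paper enriched for cell states without high purity. The paper compared only latent cells out of cycle, whereas all kept cells of the latent gate are used here. The summed CPM of 8 immune markers was at most 13.1 in the other TC libraries but ranged from 4.53 to 244 in the latent libraries, with 1 cell above 1000 CPM in each of m9 and m12, and the proliferative pool also held 1 such cell. Stromal and erythroid markers summed to at most 11.1 CPM in any TC library. The latent calls below were the same 3 and 4 members without those cells.

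The members lie on 6 chromosomes and are each protein-coding. On GRCm38, with GENCODE M21 exons, Atf4 is at chr15:80255184-80257541 (+), Ddit3 at chr10:127290774-127296288 (+), Trib3 at chr2:152337422-152344032 (-), Chac1 at chr2:119351229-119354381 (+), Asns at chr6:7675169-7693254 (-) and Ppp1r15a at chr7:45522916-45526268 (-). Atf5 is at chr7:44812256-44816658 (-), Nupr1 at chr7:126623249-126630861 (-), Ddit4 at chr10:59949669-59951834 (-) and Sesn2 at chr4:132492032-132510501 (-). Exons of Ddit3 overlap those of a second gene entry of the same symbol by 105 bases on the same strand and those of Mars by 68 bases on the opposite strand. Exons of Atf5 overlap those of Nup62 and Il4i1 by 82 bases, and those of Ppp1r15a overlap Tulp2 by 12 bases, all on opposite strands. The counting is not stated to use strand, so reads in these stretches cannot be divided between the genes.

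ATF4 pairs with C/EBP proteins on an element whose core was searched as TGATGNAA, on either strand, in the 250 bases before each RefSeq start (GRCm38.p6). It occurred in 3 of the 10 members (Asns, Chac1 and Nupr1), against 3.91% of all 27025 genes with a promoter in the table (3.45% of 32851 promoters). The 3 matches are shown because these genes are among those highest in cultured cells, and a match in Trib3 that lies 15 bases after its start, outside the searched stretch, was added after the values were seen. Each is written 5′ to 3′ on the strand of its gene, and the capitals mark the match or its reverse complement.
Asns, chr6:7693214-7693243 (-), match 15 bases before the start: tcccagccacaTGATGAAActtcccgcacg
Nupr1, chr7:126625562-126625591 (-), match 102 bases before the start: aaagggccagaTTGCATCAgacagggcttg
Chac1, chr2:119351019-119351086 (+), match 185 bases before the start: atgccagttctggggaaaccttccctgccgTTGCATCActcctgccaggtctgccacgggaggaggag
Trib3, chr2:152344028-152344057 (-), match 15 bases after the start: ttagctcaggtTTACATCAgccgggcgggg
Chac1 and Nupr1 share the same 8 letters, and Trib3 differs from them at the base that the search left free. The stretches shown for Asns and Nupr1 lie wholly within exons that GENCODE annotates to these genes, so they precede the RefSeq start but not every annotated start. The match in Trib3 follows its RefSeq start but precedes its GENCODE start. A match describes letters in the reference and not a bound site.

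Most ISR genes were highest in cultured TCs, and several of them were higher in latent cells than in the intravascular or extravascular cells of day 1.5. In the culture pool, 8 of 10 members were above all 13 libraries of sorted TCs, against 7.15% of all genes tested, the exceptions being Ppp1r15a (above 12 of 13) and Sesn2 (above 11 of 13). Relative to the mean of the 4 intravascular libraries, the culture pool was 26.4-fold higher for Chac1, 15.3-fold for Trib3, 10.5-fold for Asns, 7.54-fold for Ddit3 and 5.23-fold for Atf4, but 2.13-fold for Nupr1 and 1.78-fold for Ppp1r15a. These are ratios to 1 pool with no replicate. Per kilobase of merged exon, the levels in culture ran from 403 CPM for Nupr1, 177 for Ddit3, 163 for Atf4 and 122 for Chac1 through 85.0 for Asns and 67.2 for Trib3 to 21.6 for Ppp1r15a, 13.8 for Atf5, 1.55 for Ddit4 and 1.21 for Sesn2.

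**Figure D1:**
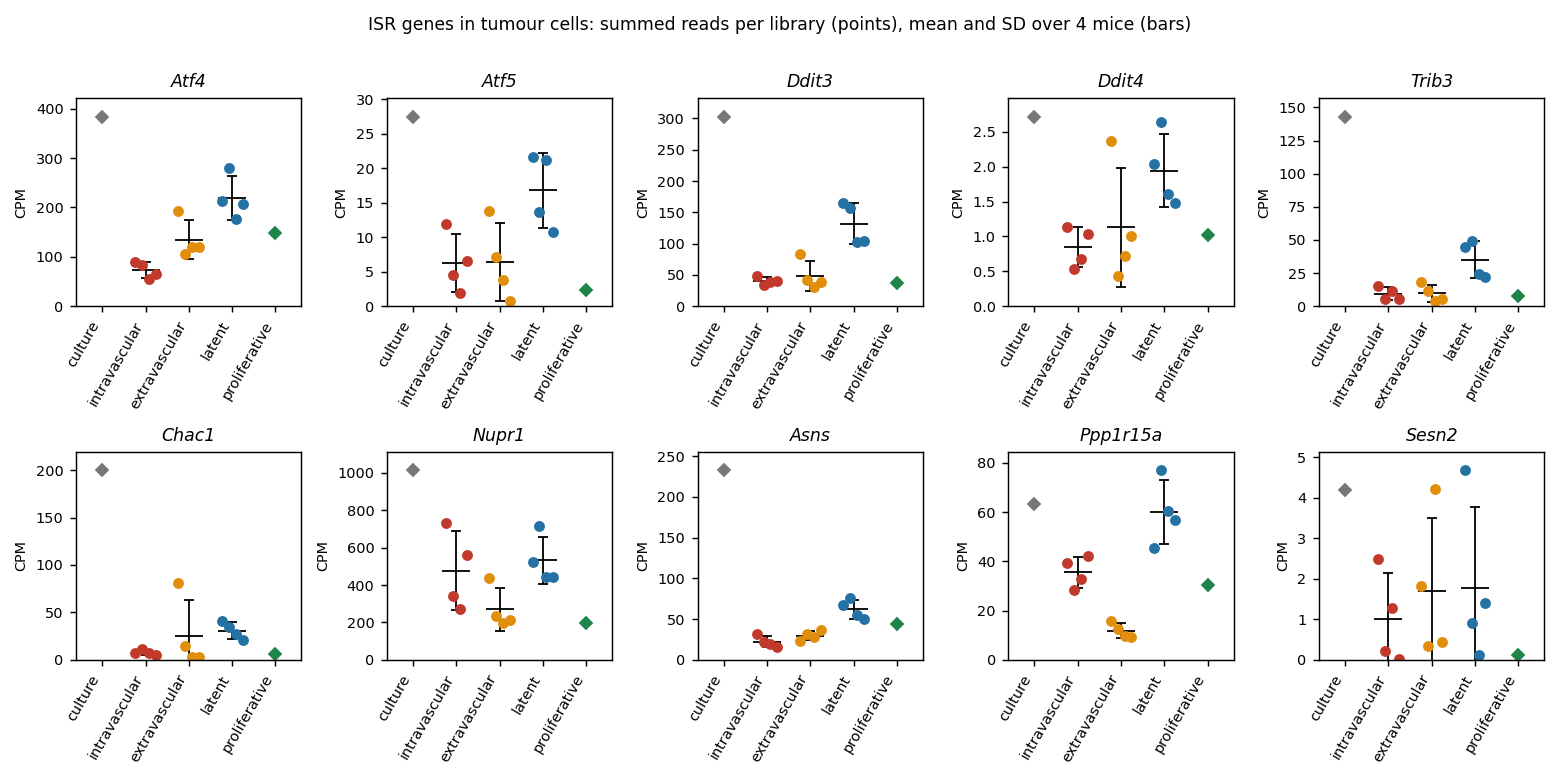
Level of each of the 10 ISR genes in TCs (linear y axis, CPM of summed reads). Each point is 1 library, with horizontal lines at the means and bars of 1 SD for the groups of 4 animals, and the bars end at 0 where they would cross it. Culture stands above all sorted libraries for 8 genes, and the latent libraries stand above all intravascular and extravascular libraries for Ddit3, Trib3, Asns and Ppp1r15a.

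Atf4, the transcription factor at the centre of the response, stood at 383 CPM in culture. It was at 89.6, 83.8, 55.3 and 64.6 CPM in the intravascular libraries of m5 to m8 (73.3 ± 16.1, SD, n = 4), at 193, 106, 119 and 120 in the extravascular libraries of the same animals (135 ± 39.2), at 213, 280, 176 and 208 in the latent libraries of m9 to m12 (219 ± 43.7) and at 149 in the proliferative pool. All latent libraries were above all intravascular ones, while the lowest latent library lay below the extravascular library of m5. Ddit3 encodes CHOP, a factor linked to cell death under unresolved stress. It was at 302 CPM in culture, 48.4, 33.3, 38.5 and 40.3 in the intravascular libraries (40.1 ± 6.25), 83.4, 41.3, 30.4 and 38.4 in the extravascular ones (48.4 ± 23.8), 164, 157, 103 and 104 in the latent ones (132 ± 33.5) and 36.3 in the proliferative pool. Every latent library was above every other sorted library, and the groups at day 1.5 overlapped each other.

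Atf5, a factor whose translation is controlled like that of ATF4, was at 27.4 CPM in culture and at 21.7, 13.7, 21.2 and 10.8 in the latent libraries (16.8 ± 5.43, n = 4). The intravascular libraries held 1.89 to 11.8 CPM and the extravascular ones 0.805 to 13.9, so both ranges reached into the latent one, while the proliferative pool was lower than all latent libraries at 2.30. Nupr1, a small chromatin-associated stress protein, was the most abundant member in TCs also per kilobase. Its level was 1013 CPM in culture, 730, 340, 273 and 563 in the intravascular libraries, 438, 232, 197 and 213 in the extravascular ones, 523, 713, 445 and 445 in the latent ones and 199 in the proliferative pool. The intravascular libraries spanned the whole latent range, whereas the extravascular libraries all lay below it.

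Ppp1r15a, the regulatory subunit that brings phosphatase 1 to eIF2, had an order of its own. It was at 63.4 CPM in culture, 39.3, 28.2, 32.9 and 42.0 in the intravascular libraries (35.6 ± 6.24, n = 4), 15.8, 12.4, 9.76 and 9.25 in the extravascular ones (11.8 ± 2.98), 45.6, 76.9, 60.6 and 56.7 in the latent ones (59.9 ± 12.98) and 30.5 in the proliferative pool. The latent, intravascular and extravascular libraries occupied ranges that did not overlap, and culture lay within the latent range. Trib3, a pseudokinase that is induced by ATF4 and CHOP and restrains them, was at 143 CPM in culture, 15.5, 5.38, 11.2 and 5.35 in the intravascular libraries, 18.4, 11.4, 4.19 and 5.45 in the extravascular ones, 45.0, 49.4, 24.4 and 22.2 in the latent ones and 7.48 in the proliferative pool. The latent libraries again stood above all other sorted libraries.

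Asns, which makes asparagine and is a classical ATF4 target, was at 232 CPM in culture, 31.5, 22.2, 19.9 and 15.2 in the intravascular libraries (22.2 ± 6.87, n = 4), 22.8, 31.2, 28.4 and 37.0 in the extravascular ones (29.9 ± 5.90), 67.4, 75.7, 54.7 and 50.2 in the latent ones (62.0 ± 11.7) and 43.6 in the proliferative pool. The proliferative pool lay between the extravascular and the latent range. Chac1, an enzyme that breaks down glutathione, was at 200 CPM in culture, 7.22, 10.9, 7.22 and 4.87 in the intravascular libraries (7.55 ± 2.50), 80.9, 14.4, 3.34 and 3.51 in the extravascular ones (25.5 ± 37.2), 40.7, 34.4, 27.4 and 20.4 in the latent ones (30.7 ± 8.75) and 6.16 in the proliferative pool. Its extravascular mean rested on m5, where 1 cell with 3778 CPM carried 95.8% of the reads, and without that cell the library stood at 3.40 CPM.

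The remaining targets were scarce. Ddit4 (REDD1), an inhibitor of mTORC1, was at 2.71 CPM in culture, 0.535 to 1.13 in the intravascular, 0.437 to 2.36 in the extravascular and 1.48 to 2.65 in the latent libraries, and 1 cell held 90.8% of its reads in the extravascular library of m5. Sesn2, a leucine sensor that also restrains mTORC1, was at 4.19 CPM in culture and at 0.0200 to 4.67 over the sorted libraries with all groups overlapping. It had reads in 16.8% of the cultured cells (95% exact binomial interval 13.1% to 21.02%) and in 2.61% to 7.29% of the kept cells of the intravascular, extravascular and latent groups, so its fold changes were not determined at this depth. Such intervals cover counting error only and treat the cells of 1 pool as independent draws, and reads include PCR copies of the same molecule.

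Latent cells were compared with extravascular cells of day 1.5. These groups differ in gate, day, animals and lane at once, so these cannot be told apart. The dye gate was also set independently of whether a cell had left the vessels. By edgeR's quasi-likelihood test with Benjamini-Hochberg adjustment over all genes, 8.57% of genes were called, 3.60% as higher and 4.97% as lower in latent cells. Of the members, 3 were called and all 3 were higher. Ppp1r15a was 2.20 ± 0.21 (SE) higher on the log2 scale with an adjusted p = 4.17e-05, Ddit3 1.31 ± 0.28 (adjusted p = 0.0108) and Asns 0.91 ± 0.22 (adjusted p = 0.0224). The extravascular libraries of Ppp1r15a are those whose low level was known when it was chosen, so its value here is not independent of that choice. Trib3 (1.69 ± 0.49, adjusted p = 0.0527), Atf4 (0.56 ± 0.20, adjusted p = 0.108) and Nupr1 (0.83 ± 0.31, adjusted p = 0.119) missed the threshold. The fold changes of Atf5 (1.26 ± 0.68), Ddit4 (0.64 ± 0.51), Chac1 (0.13 ± 0.78) and Sesn2 (-0.052 ± 1.19) lay within 2 of their standard errors. In 5 members every latent library was above every extravascular one (Ddit3, Trib3, Nupr1, Asns and Ppp1r15a), against 10.4% of all genes. At an unadjusted p under 0.05 there were 6 members, against 23.4% of all genes. The median log2 fold change of the 10 members was 0.87 beside 0.025 over all genes.

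The extravascular library of m5 moved several of these calls. Without it, 6 members were called (Atf4 at 0.78, adjusted p = 0.0176; Chac1 at 1.94, adjusted p = 0.0428; Nupr1 at 1.16, adjusted p = 0.0270; Trib3 at 2.16, adjusted p = 0.0214; and Ddit3 and Ppp1r15a as before). Asns then fell just short (0.80, adjusted p = 0.0590), as it did without the extravascular library of m7 (adjusted p = 0.0590) or the latent library of m9 (0.0669) or m10 (0.0752). Asns was also lost when cells over 5% mitochondrial reads were left out (0.86, adjusted p = 0.0552). Trib3 was also called without the intravascular library of m5 (adjusted p = 0.0446), which enters the shared spread. DESeq2, limma on mean CPM per cell and limma on mean log10 values called 6, 7 and 10 members. These methods called 2882 of 26191, 1805 of 19249 and 5027 of 18529 genes over all, the last as 4032 higher and 995 lower. Over all genes, 1389 of 19196 were called without the extravascular library of m5. When, for the members alone, the cell with most reads of the gene was left out of every library, 7 members were called by edgeR (Asns, Atf4, Chac1, Ddit3, Ddit4, Ppp1r15a and Trib3), while the other genes kept their counts and 1656 of 19249 genes were called in all.

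Latent cells were also compared with intravascular cells, using the same latent libraries. Gate, day, animals and lane again cannot be told apart. Here 11.5% of genes were called, 5.27% as higher and 6.20% as lower, and 4 members were called, all as higher in latent cells. By edgeR with Benjamini-Hochberg adjustment, Atf4 differed by 1.36 ± 0.20 on the log2 scale (SE; adjusted p = 0.000671), Asns by 1.26 ± 0.22 (adjusted p = 0.00242), Ddit3 by 1.50 ± 0.28 (adjusted p = 0.00349) and Trib3 by 1.69 ± 0.49 (adjusted p = 0.0431). Ppp1r15a, the member with the largest distance from extravascular cells, was at 0.53 ± 0.20 here (adjusted p = 0.117), Chac1 at 1.80 ± 0.81 (adjusted p = 0.180) and Nupr1 at -0.057 ± 0.30 (adjusted p = 0.934). In 7 members every latent library was above every intravascular one (Atf4, Ddit3, Ddit4, Trib3, Chac1, Asns and Ppp1r15a), against 14.9% of all genes. The median was 1.25 over the members and 0.01 over all genes. The call of Trib3 was lost with the mitochondrial limit (1.57, adjusted p = 0.0777) and in 8 of the 12 fits without 1 library, namely the intravascular m6 (adjusted p = 0.106), m7 (0.0655) and m8 (0.115), the extravascular m6 (0.0546) and the latent m9 (0.107), m10 (0.119), m11 (0.0556) and m12 (0.0502). Chac1 was called without the extravascular library of m5 (adjusted p = 0.0236).

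**Figure D2:**
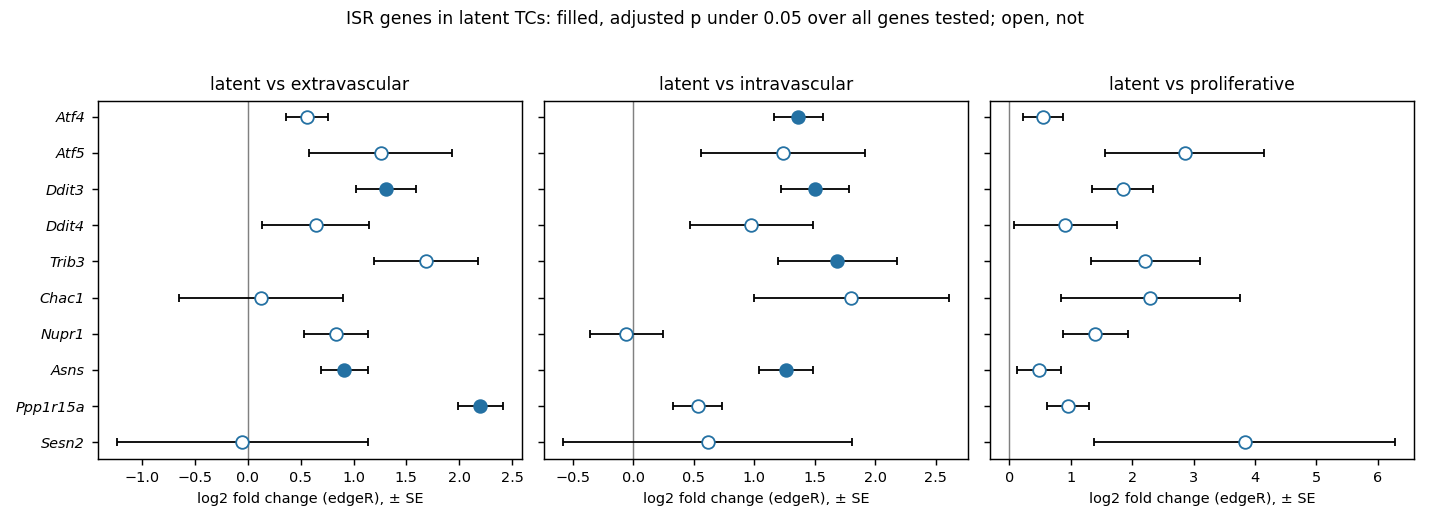
Log2 fold change of each ISR gene in latent TCs against extravascular, intravascular and proliferative TCs (x axis, log2 scale; bars are 1 SE of the edgeR fit; filled points have an adjusted p under 0.05). The 3 comparisons share the latent libraries. Ppp1r15a, Ddit3 and Asns are filled against extravascular cells, and Atf4, Asns, Ddit3 and Trib3 against intravascular cells.

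Against the proliferative pool, which was collected on the same day, 9 of 10 members had their pooled value below all 4 latent libraries (not Sesn2), as did 19.3% of all genes. By edgeR no gene of the 19249 was called (0%; 5.08% of genes and 5 members at an unadjusted p under 0.05), in a fit that assumes the lone pool to vary like the other groups. The members with an unadjusted p under 0.05 were Ddit3, at 1.84 ± 0.50 on the log2 scale with an adjusted p of 0.701 by edgeR, Trib3 at 2.21 ± 0.89 (0.936), Nupr1 at 1.40 ± 0.53 (0.913), Ppp1r15a at 0.96 ± 0.34 (0.906) and Atf5 at 2.86 ± 1.29 (0.977). Atf4 (0.54 ± 0.33) and Asns (0.49 ± 0.36) stood closest to the pool. All 10 fold changes were above 0, as were 55.2% over all genes, and the median was 1.62 against 0.08. DESeq2 called 109 genes in this comparison, Ddit3 among them (adjusted p = 0.00949).

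Between the extravascular and intravascular cells of the same animals, 2 members had groups that did not overlap, as did 8.43% of all genes, and they went in opposite directions. The mean CPM of Atf4 was 1.84 times as high in extravascular as in intravascular cells, and that of Ppp1r15a was 0.332 times as high. Nupr1 was at 0.566 times the intravascular mean, and although the libraries overlapped, its extravascular level was the lower in each of the 4 animals, and the same ratio was 1.21 for Ddit3, 1.05 for Trib3 and 1.35 for Asns. The share of cells with reads of Atf4 went the other way, at 77.3% to 83.8% of extravascular and 84.8% to 90.5% of intravascular cells per library, or 66.6% to 73.4% and 72.0% to 79.4% after thinning to equal depth. Over all genes, 0.951% (183) were called between the gates by the adjusted p of edgeR, and 34 of 14697 in a separate fit of the 8 libraries of these gates with the animal as a block. The first count ranged from 8 to 518 when 1 library was left out and was 1401 by DESeq2.

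Shares of cells with reads are given beside the levels. In culture, 97.8% of cells had reads of Atf4 (exact interval 95.8% to 99.1%), 95.4% of Asns, 91.3% of Ddit3, 88.3% of Chac1, 85.9% of Trib3 and 71.3% of Ppp1r15a, although the cultured cells had fewer reads each (median 254 k, with k for 1000) than the sorted ones (460 to 718 k). Ddit3 had reads in 38.1% to 45.1% of intravascular cells per library, 38.8% to 44.0% of extravascular cells, 52.4% to 71.8% of latent cells and 44.3% of proliferative cells. After each cell was thinned to 100000 reads, with 23, 12, 20 and 3 shallower cells left out of these groups, its shares were 31.4% to 37.3%, 30.9% to 33.9%, 44.4% to 55.4% and 31.7%. Ppp1r15a had reads in 37.8% to 47.6% of intravascular, 17.5% to 26.8% of extravascular and 58.8% to 61.2% of latent cells, or 25.7% to 35.6%, 12.7% to 20.3% and 48.7% to 53.8% after thinning. The latent shares of both genes stood above those of the day 1.5 gates at equal depth as well. For comparison, ECs had reads of Trib3 in 1.02% to 6.39% and of Asns in 2.63% to 7.67% of cells per library, at a median of 271 to 391 k reads per cell.

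**Figure D3:**
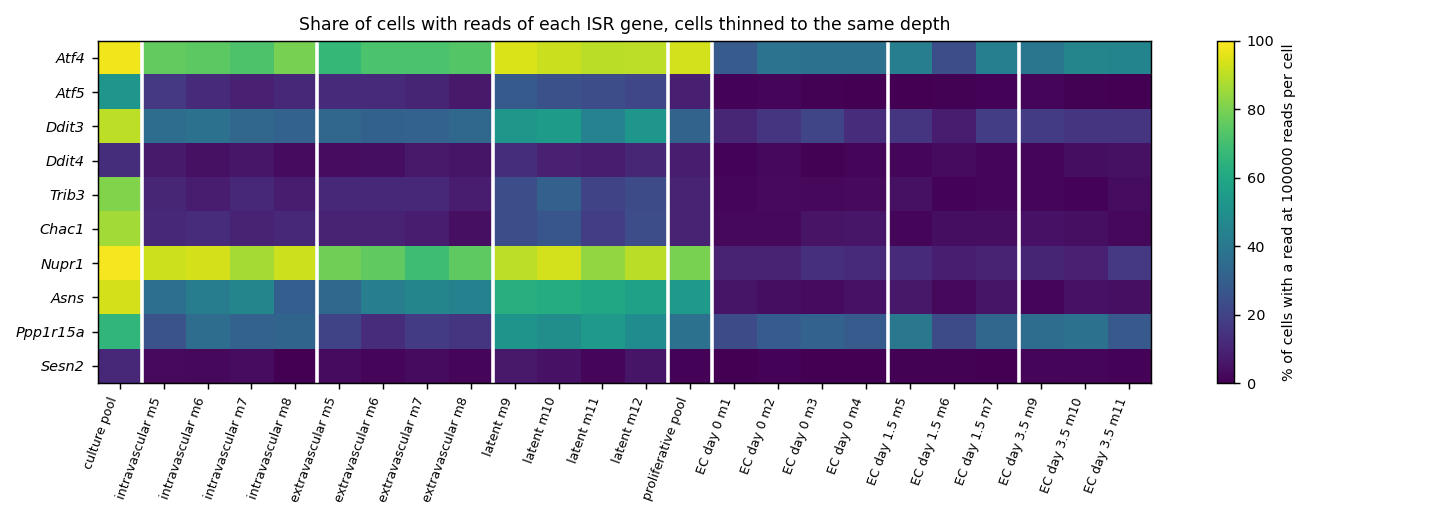
Share of cells with a read of each ISR gene (colour, percent of cells) after each cell was thinned to 100000 reads, with genes in rows and libraries in columns. White lines separate the groups. Culture is brightest in most rows, and the EC columns are dark apart from Atf4 and Ppp1r15a. The latent shares lie above those of both TC gates of day 1.5 for every gene except Nupr1 and Sesn2.

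Single cells in culture carried most of the programme at once. The median number of members with reads was 8 of 10 per cultured cell, 4 in intravascular libraries, 3 to 4 in extravascular, 4 to 5 in latent, 4 in the proliferative pool and 1 to 2 in EC libraries. At least 5 members were seen in 95.1% of cultured cells (351 of 369), 26.8% to 35.4% of intravascular cells, 22.7% to 28.0% of extravascular cells, 47.6% to 64.7% of latent cells and 40.1% of proliferative cells. Across the 369 cultured cells, Spearman's rho between levels was taken for the 21 pairs of Atf4, Ddit3, Trib3, Chac1, Asns, Nupr1 and Ppp1r15a. The 5 highest values were Atf4 with Asns (0.664), Trib3 (0.599) and Chac1 (0.587), Trib3 with Chac1 (0.562) and Ddit3 with Trib3 (0.521). Atf4 with Nupr1 was at -0.076 in the same cells but at 0.289 to 0.388 in the latent libraries, and Atf4 with Ppp1r15a at 0.253 and 0.438 to 0.515. Within the 12 intravascular, extravascular and latent libraries the median rho of those 5 pairs was 0.419, 0.270, 0.308, 0.395 and 0.206. In the proliferative pool rho was 0.411, 0.180, 0.132, 0.118 and 0.174. The 5 pairs were picked for their values in culture, so lower values elsewhere can come from that choice alone. Atf4 with Trib3 was at 0.355 to 0.561 in the latent libraries and 0.0439 to 0.382 in those of day 1.5. These values come from cells that share a library and differ in depth, and are descriptions.

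Related gene lists differed in how many of their genes were called. Of 12 bZIP partners and other stress genes linked to ATF4, 5 were called higher and 1 lower in latent than in extravascular cells, and 4 were called higher than in intravascular cells, with list medians of 1.27 and 1.35 on the log2 scale. Over all genes, 3.60% were called higher and 4.97% lower against extravascular cells, and 5.27% and 6.20% against intravascular cells, and these shares are the background of every list count here. Gadd45a, a growth arrest gene, rose from 15.2 ± 7.64 to 70.6 ± 17.8 CPM against extravascular cells (SD, n = 4 each; log2 2.06, adjusted p = 0.00116 by edgeR). Cebpb, a partner of ATF4, rose from 9.08 ± 0.777 CPM in intravascular to 46.8 ± 5.57 in latent cells (log2 2.15, edgeR adjusted p = 6.34e-05), and Sqstm1, the autophagy receptor p62, rose in both comparisons (log2 1.33 and 1.47). Atf3, a repressor induced by ATF4, rose against intravascular cells by 1.92 (adjusted p = 0.0186). Ndrg1, another gene of this list, rose against extravascular cells (1.81), as did Atf3 (1.84), while Tnfrsf10b, a death receptor gene, was the 1 called lower (-0.91). These last 2 values, and those of Psat1, Calr and of Hspa5 against intravascular cells below, were added after they were seen.

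Among 16 genes of amino acid synthesis and transport, 1 was called higher against extravascular cells, a share near the 3.60% over all genes (Slc3a2, the heavy chain of amino acid exchangers, log2 0.87), and 5 against intravascular cells, namely Slc3a2 (1.21), Phgdh of serine synthesis (0.88), Slc7a1 (0.70), Shmt2 (0.68) and Psat1 (0.63), with none lower. Of 12 aminoacyl-tRNA synthetases, Aars (1.00 and 0.72) and Sars (0.89 and 0.98) were called higher in both comparisons. In culture, 11 of the 16 amino acid genes and 8 of the 12 synthetases stood above all 13 sorted libraries, against 7.15% of all genes, as did 5 of the 12 genes of the bZIP list, 1 of the 14 of the eIF2 list and 1 of the 18 of the IRE1/XBP1 and ATF6 branch.

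The eIF2 list itself, with its 4 kinases, phosphatase subunits, eIF2 and eIF2B (14 genes), had a median of 0.0022 against extravascular cells. In it Eif2b2 was called higher (log2 0.69 and 0.74), Eif2s2 lower (-0.69 and -0.95) and Eif2s1, the alpha subunit, lower against extravascular cells (-0.64), while Eif2b1 was higher against intravascular cells (0.69). Of 18 genes of the IRE1/XBP1 and ATF6 branch, the other arms of the unfolded protein response, 5 were called lower and none higher against extravascular cells, where 4.97% of all genes were lower. Hspa5, the chaperone BiP, was at 814 ± 56.9 CPM in latent and 1304 ± 202 in extravascular cells (log2 -0.82, edgeR adjusted p = 0.000356), and Hsp90b1 (-0.74), Manf (-0.68), Dnajb11 (-0.71) and Calr (-0.59) were also called lower. Against intravascular cells the branch was split, with Syvn1 (1.12) and Xbp1 (0.63) called higher, and Manf (-0.79), Hsp90b1 (-0.36) and Hspa5 (-0.36) lower. In extravascular against intravascular cells Dnajb11 (0.86 ± 0.16, edgeR adjusted p = 0.0326) was the only gene of the 6 lists called, while 16 of the 18 genes of this branch had a fold change above 0, as did 48.1% of all genes. Against the proliferative pool and between the EC days no gene of the 6 lists was called.

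Immediate-early genes, which respond within minutes to stimulation or handling of cells, were also compared. Of 12 tested, 5 were called higher in latent than in extravascular cells and 7 than in intravascular cells, with list medians of 0.81 and 0.80. Fos stood at 327 ± 42.9 CPM in latent, 79.2 ± 30.2 in extravascular and 86.5 ± 15.7 in intravascular cells (SD, n = 4 each), and Dusp1, a phosphatase of MAP kinases, rose by 1.79 and 2.62 on the log2 scale. In culture, 0 of the 12 stood above all sorted libraries, and against the proliferative pool their median was -0.24. Their part in the members' values was not tested. Ppp1r15a and Atf3 respond to some of the same stimuli.

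**Figure D4:**
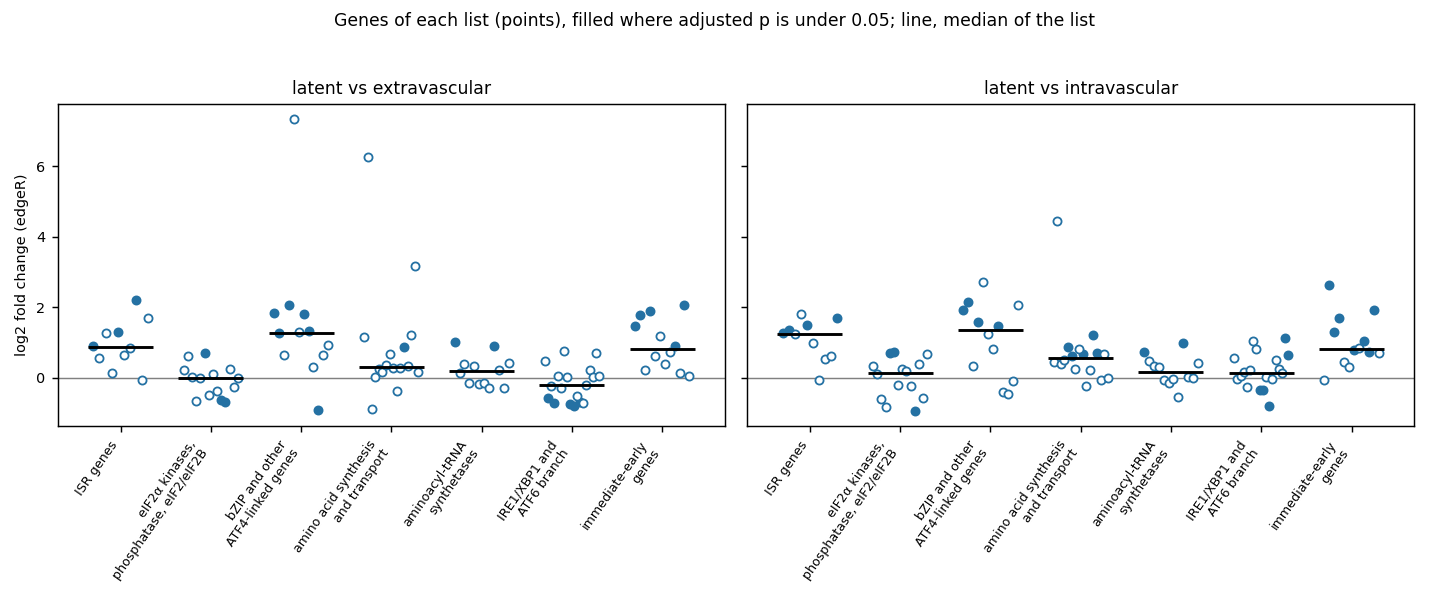
Log2 fold change in latent TCs against extravascular and intravascular TCs for the 10 ISR genes and 6 related gene lists (y axis, log2 scale, with the lists along the x axis). Each point is 1 gene, filled where its adjusted p is under 0.05, and horizontal lines are list medians. The medians of the ISR and bZIP lists lie at 0.87 and 1.27 against extravascular cells, and that of the IRE1/XBP1 and ATF6 branch at -0.21.

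Across the 12 intravascular, extravascular and latent libraries, the mean of the members' standardised log2 CPM ran from -0.90 (extravascular m8) to 1.101 (latent m9), with 2 libraries of animal m5 at 0.24 (intravascular) and 0.51 (extravascular) above the others of day 1.5, and the latter above the latent library of m11 at 0.49. Ddit3 (Pearson's r = 0.967) and Trib3 (0.947) followed this mean most closely, and Sesn2 (0.321) least. The 5 genes outside the set with the most similar pattern were Iqgap1 (0.943), Cnppd1 (0.941), Pnrc1 (0.926), Leprotl1 (0.920) and Vasn (0.919), over 12 libraries that fall into 3 gates. Iqgap1, Cnppd1 and Vasn were lower in culture (88.3, 17.7 and 1.097 CPM) than in latent cells (243, 27.9 and 7.14 CPM). Pnrc1 (53.8 and 50.3 CPM) and Leprotl1 (255 and 207 CPM) were higher in the culture pool than in the latent mean, as were all 10 members.

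In ECs the set was mostly low and did not change detectably over the 3 days. Atf4 and Ppp1r15a were the exceptions in level, at 82.4 to 243 and 132 to 234 CPM per library, or 77.9 and 70.8 CPM per kilobase at day 0. Atf4 had reads in 28.3% to 50.9% and Ppp1r15a in 29.3% to 52.4% of ECs per library. Ddit3 ranged from 9.58 to 70.5 CPM and Nupr1, the most abundant member in TCs, from 2.44 to 11.4. Chac1 reached 112 CPM in the day 1.5 library of m6, where 1 cell held 87.0% of its reads, and Trib3 reached 39.7 in the day 0 library of m2, where 1 cell held 96.2%. At least 5 members were seen in at most 0.958% of ECs of a library.

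No gene was called by edgeR between EC days (0% of 17585 in each of the 3 comparisons; 8.09%, 8.76% and 4.54% of genes at an unadjusted p under 0.05 for day 1.5 against 0, day 3.5 against 0 and day 3.5 against 1.5). Of the members, 0, 1 and 0 had such an unadjusted p, and DESeq2 called none of them while it called 361, 506 and 133 genes. The 1 member was Ddit4, at 1.02 to 6.17 CPM on day 3.5 and 0.182 to 1.26 on day 0 (log2 2.83 ± 1.105, edgeR adjusted p = 0.506). In it 1 cell held 54.3% to 94.9% of the reads of each day 3.5 library. Nupr1 was at 11.4, 6.67 and 6.27 CPM on day 1.5, above all day 0 libraries (3.82, 2.44, 4.46 and 6.25; log2 0.88 ± 0.64, edgeR adjusted p = 0.763) and above all day 3.5 libraries (3.67, 3.71 and 5.59). Without the day 1.5 library of m5 the log2 fold change against day 0 was 0.55 (edgeR adjusted p = 0.915), and with the highest cell of each library left out it was 0.22 (0.967). Groups without overlap occurred in 7.49% of all genes for day 1.5 against 0 and in 9.70% for day 3.5 against 1.5.

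On day 3.5, Chac1 (7.12, 7.18 and 7.22 CPM) lay below all day 0 libraries (8.88, 12.03, 11.6 and 72.7; log2 -1.97 ± 1.24, edgeR adjusted p = 0.692). Without the day 0 library of m4 the difference was -0.63 (adjusted p = 0.912). Sesn2 lay above them, with 2.31, 2.05 and 0.306 CPM against at most 0.261, on reads in 10 of 699 and 3 of 839 cells (edgeR adjusted p = 0.608). Groups without overlap occurred in 7.88% of all genes there. The day 0 animals m1 and m2 were sorted with those of day 1.5 and m3 and m4 with those of day 3.5. Within the sort day, day 3.5 against day 0 gave 4.26 for Ddit4 and -2.62 for Chac1 (adjusted p = 0.642 for each by edgeR), and day 1.5 against day 0 gave 1.34 for Nupr1 (adjusted p = 0.774). The summed CPM of erythroid markers was 1416 in the day 0 library of m4, which also held the highest Chac1 level of its day, beside a day 0 median of 175 and values of 27.6 to 171 on the later days, and its part was not tested.

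**Figure D5:**
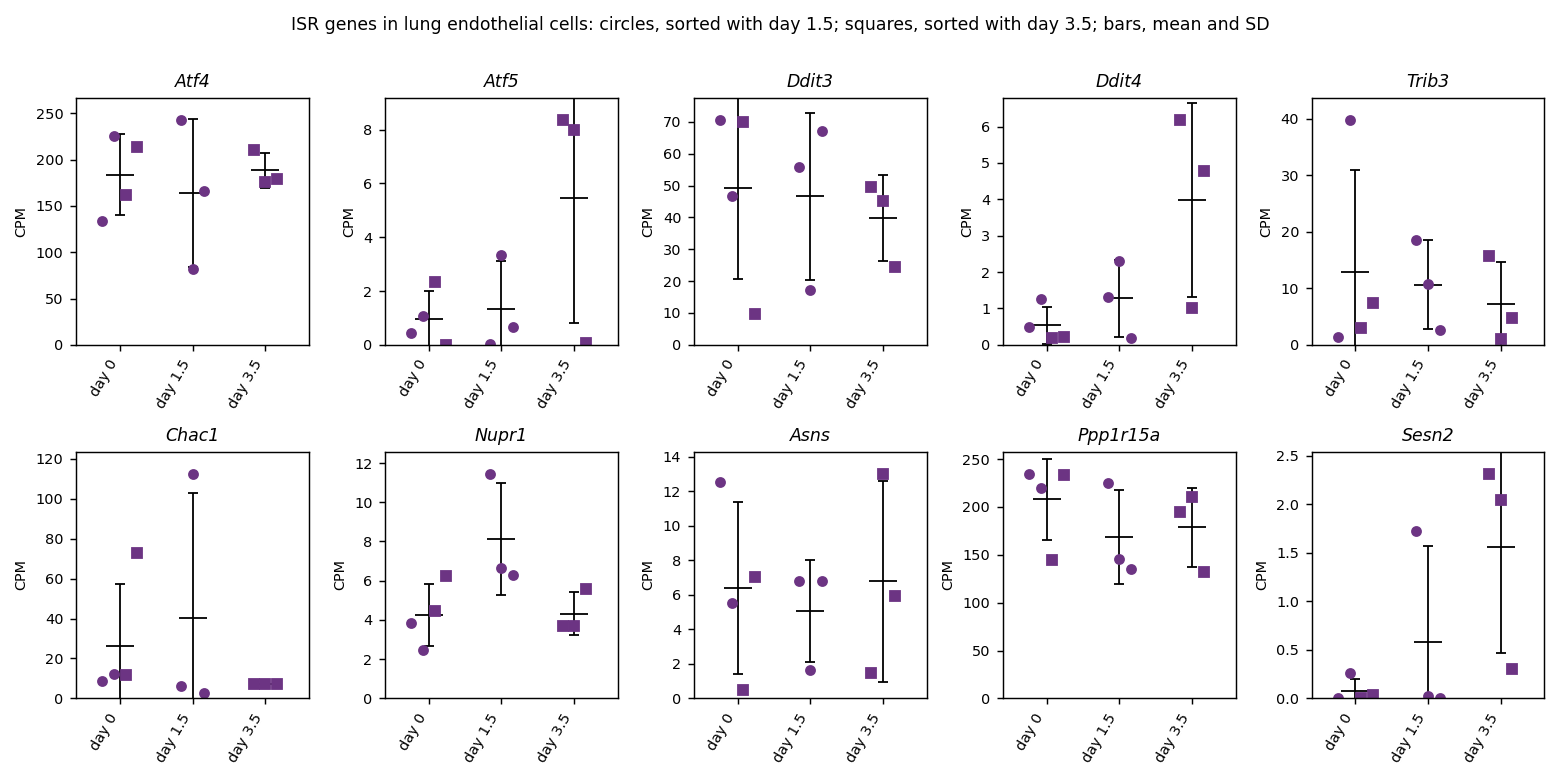
Level of each ISR gene in lung ECs at days 0, 1.5 and 3.5 (linear y axis, CPM of summed reads; each point is 1 animal, horizontal lines are means and bars are 1 SD). Atf4 and Ppp1r15a are the only members above 80 CPM in every library, and the days overlap except for Nupr1 at day 1.5 and for Chac1 and Sesn2 between days 0 and 3.5.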

How the data were processed

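The genes and the related lists were chosen with earlier results of these data known. The deposited raw tables hold estimated counts per gene and cell, which the authors made with bcl2fastq and Salmon 0.7.2 against GRCm38, per the submitters' processing notes. The deposited filtered tables hold log10 values, for which the authors divided each count by the mean of a housekeeping panel and scaled it before the log. Cells were kept where the filtered tables hold them. A further endothelial table was not used, and 0 columns of other samples were met.

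The estimated counts were added up over the kept cells of an animal, rounded, and tested with edgeR 4.0.16 (R 4.3.3; filterByExpr, TMM, quasi-likelihood test, Benjamini-Hochberg adjustment over all genes, threshold 0.05), with 13 libraries in 1 TC fit and 10 in 1 EC fit. The code was tested on simulated data with 200 changed genes. The annotation names 1 animal (m12, also a latent library) for all proliferative cells while the labels give several replicates, so they form 1 pool. By the paper, latent and proliferative fractions were matched within animals, so the pool shares animals with the latent libraries. The fit does not pair them. Named genes were all members, up to 4 called genes per list and comparison with the smallest p, and the 5 genes most like the members' mean. Intravascular and extravascular cells came from the same animals, which pairs them, although their deviations by animal correlated at 0.040, -7.9e-05, 0.017 and -0.0074. Alternatives were DESeq2 1.42.0, no filter, all sorted cells, limma 3.58.1 on mean CPM per cell (pseudocount 1) or on mean log10 values, the highest cell left out, each library left out, the animal as a block and thinning of cells. A mitochondrial limit of 5%, removal of cells with immune markers and the sort day were added after seeing the data. Promoters are from RefSeq (GRCm38.p6), in which all 10 members were found.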

Additional observations from a re-analysis of the deposited data

Results flagged for a closer look

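Over 80 groups of 4 libraries (10 genes, CPM and share of cells with reads), 12 had a highest or lowest library whose gap to the next exceeded Dixon's critical value, which chance passes in about 1 of 20 groups. In the extravascular library of m5 the levels of Atf4 (192.7 CPM), Chac1 (80.86 CPM) and Nupr1 (437.9 CPM) stood above the other 3 animals. In that library 1 cell carried 31.3% of the Atf4 reads and 95.8% of the Chac1 reads. In the extravascular library of m6 the share of cells with reads was high for Atf5 (22.5%) and low for Ddit3 (38.75%), and in the intravascular library of m8 it was high for Atf4 (90.48%). The share for Asns was low in the latent library of m11 (70.24%).

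In ECs of day 0, the share of cells with reads of Atf4 was low in m1 (30.63%). The level of Trib3 was high in m2 (39.7 CPM, with 96.2% of the reads in 1 cell), that of Chac1 in m4 (72.69 CPM) and that of Sesn2 in m2 (0.2609 CPM), while that of Ppp1r15a was low in m3 (144.5 CPM). No EC comparison of the members passed the threshold with or without these libraries.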

How the results depend on the processing

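With DESeq2 the members called numbered 6 for latent against extravascular cells and 1 for latent against proliferative cells, and the genes called over all numbered 2882 and 3534 for latent against extravascular and intravascular cells, 109 against proliferative cells, 1401 between the day 1.5 gates, and 361, 506 and 133 between EC days. With limma on mean CPM per cell, 7 members were called for latent against extravascular cells, with 290 genes over all between the day 1.5 gates (188 higher, 102 lower), 13 genes against proliferative cells and 2 and 1 for ECs of days 1.5 and 3.5 against day 0. This scale called 1261 genes higher and 544 lower against extravascular cells and 1972 and 672 against intravascular cells, where it moved the median of all genes to 0.11. With limma on mean log10 values, 10 and 8 members were called for latent against extravascular and intravascular cells, with 5027 genes over all (4032 higher, 995 lower; median 0.11) and 3745 (2332 and 1413), while 1454 genes (149 and 1305) were called between the day 1.5 gates, and 161 and 262 genes for the EC days against day 0. In TCs the genes tested numbered 26191 with DESeq2, 19249 with mean CPM per cell and 18529 with mean log10 values. With the highest cell of each member left out, and the other genes unaltered, 7 members were called against extravascular cells and 1656 genes over all. With all sorted cells, 1 gene was called for each EC day against day 0, and with the mitochondrial limit 1 for day 1.5. Under that limit Asns against extravascular cells (0.86, adjusted p = 0.0552) and Trib3 against intravascular cells (1.57, adjusted p = 0.0777) were no longer called. With the animal as a replicate block, in a fit of the 8 libraries of the day 1.5 gates alone, 34 of 14697 genes were called between them. No replicate block was fitted elsewhere: the replicate numbers of the labels could not be tied to the columns, latent and day 1.5 cells are of different animals, and the proliferative cells are 1 pool. The alternative with 4 proliferative replicates was not run because the columns carry no such number. The sort day as a term of the EC fit called no member.

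The direction of Sesn2 against extravascular cells turned with mean CPM (0.022), mean log10 values (0.24) and the highest cell left out (1.67), and that of Nupr1 against intravascular cells turned with mean CPM (0.42). With 1 library left out, fold changes crossed 0 for Chac1 (-0.25 to 1.94) and Sesn2 (-1.20 to 0.91) against extravascular cells and for Nupr1 (-0.25 to 0.21) and Sesn2 (-0.54 to 1.57) against intravascular cells. Members called then ranged from 2 to 6 and 3 to 5 for latent against extravascular and intravascular cells, with 1189 to 1693 and 1599 to 2434 genes over all, 8 to 518 genes were called between the day 1.5 gates, and 0 to 1 genes were called between EC days. Over the other alternatives, 253 values of single members kept their direction and side of the threshold, 26 passed it, 2 lost it, 4 turned and 12 shares moved. The cause of these changes was not tested. Single cells carried up to 100% of the Sesn2 reads and 90.8% of the Ddit4 reads of a TC library, which limits what 4 animals per gate can resolve for them.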
